A study of Homo sapiens with 6 samples.

Results

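The genes described here carry out or restrain proteolysis around the cell: the plasminogen activators PLAU and PLAT, the receptor PLAUR, the protease inhibitors SERPINE2 and TIMP1, and the matrix metalloproteinases MMP1, MMP9, MMP10 and MMP14. They were chosen by name, with earlier results of these data known. They are 9 of the 60663 gene rows used, and 8 of the 9 were among the 19836 genes with enough counts to be tested. RNA came from 5637, an established human bladder cancer cell line, sequenced after 48 h of transfection. The cells of every library were given dCas13b-FTO, that is, an RNA-guided Cas13b without nuclease activity joined to the RNA N6-methyladenosine demethylase FTO, per the series description (the sample titles name dCas13b alone). In 3 libraries the cells also received a control guide RNA, and in the other 3 a guide RNA against HRAS, a small GTPase of the growth factor pathway. No untransfected cells and no cells without the fusion are among the groups, so each difference below is between the guides. Whether replicates are separate cultures is not said in the labels, so a p-value here speaks only of library-to-library spread, which may be technical.

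Urokinase (PLAU) and tissue-type activator (PLAT) are serine proteases that cut plasminogen into plasmin, which degrades fibrin and matrix proteins and can activate some metalloproteinase precursors. PLAUR anchors urokinase at the cell surface, and SERPINE2, also called protease nexin, inhibits urokinase, tissue-type activator and thrombin. MMP1 is an interstitial collagenase, MMP9 a gelatinase, MMP10 a stromelysin and MMP14 a membrane-bound metalloproteinase that activates the MMP2 precursor, while TIMP1 inhibits many metalloproteinases. In epithelial tumours several of these genes are known targets of growth factor signalling through AP-1, a dimer of FOS and JUN family proteins. Its binding letters are searched for below as TGANTCA, where N is any base.

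Promoter windows show where AP-1 letters stand in these genes. RefSeq entries on the GRCh38.p14 build were used for 6 members, with 8 start sites between them. The 250 bases before each start were searched on both strands. The remaining members were not searched, which does not mean that RefSeq lacks an entry for them. An AP-1 match, TGANTCA, was present before the start of MMP10 and of PLAUR. It was present in 6.57% of the 35116 promoter windows of this length. The MMP10 match, TGAATCA, ran from 67 to 61 bases before the start, and a TATA box (TATAAA, in 10.7% of all windows) from 31 to 26 bases before it. The PLAUR match, TGAGTCA, ran from 186 to 180 bases before the start. The 6 windows of PLAU, SERPINE2, MMP14 and TIMP1 held no such match, which says only that these letters are not in these windows. The GC box GGGCGG, with a match in 42.6% of all windows, stood in windows of PLAU, SERPINE2, MMP14 and TIMP1. In TIMP1 it stood at 2 places, both on the opposite strand. The ETS letters CCGGAAG (8.52% of all windows) were in none of the 8. The motifs do not overlap one another in the windows below, and a match is a description of the letters, not of binding. The 2 windows with a match, and that of TIMP1 as a window without one, are given 5′ to 3′, with the matched letters in capitals. The TIMP1 window holds the near match tgagtaa, which the search did not count. Near matches also stand in a SERPINE2 window (tgaatcc) and in the MMP14 window (ggattca), and were not counted either. Near matches were not searched for as such.
MMP10, chr11:102780629-102780878, minus strand: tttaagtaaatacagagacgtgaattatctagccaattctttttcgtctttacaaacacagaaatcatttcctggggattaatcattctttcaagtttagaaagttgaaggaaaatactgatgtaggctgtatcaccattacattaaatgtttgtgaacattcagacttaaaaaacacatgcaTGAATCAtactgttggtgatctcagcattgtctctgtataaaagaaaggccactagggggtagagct
PLAUR, chr19:43670170-43670419, minus strand: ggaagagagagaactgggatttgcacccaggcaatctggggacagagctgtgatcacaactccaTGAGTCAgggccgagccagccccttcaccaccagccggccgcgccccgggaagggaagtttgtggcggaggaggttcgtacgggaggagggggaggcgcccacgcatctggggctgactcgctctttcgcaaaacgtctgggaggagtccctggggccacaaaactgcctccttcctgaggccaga
TIMP1, chrX:47582186-47582435, plus strand: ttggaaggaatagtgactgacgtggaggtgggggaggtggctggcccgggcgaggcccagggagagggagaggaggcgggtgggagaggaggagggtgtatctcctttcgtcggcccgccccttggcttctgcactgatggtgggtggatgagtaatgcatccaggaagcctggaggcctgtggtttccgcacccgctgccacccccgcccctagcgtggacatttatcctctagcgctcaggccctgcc

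Library totals ran from 24968702 to 32283370 counts. Levels are depth-scaled counts (CPM), and values within a group are given in replicate order throughout. HRAS, whose transcript the guide targets, averaged 182 ± 43.7 CPM in control cells and 184 ± 16.5 CPM under its own guide (SD, n = 3 each). The log2 fold change was 0.01 ± 0.15 (SE). The epithelial keratins and EPCAM were present: 12 of 17 epithelial and urothelial markers had a mean of at least 5 CPM, led by KRT19 at 3368 CPM, while KRT20, UPK1A, UPK1B and UPK3A lay below 1 CPM. Summed, they reached 10317 to 13548 CPM in control libraries and 10548 to 11951 CPM in HRAS guide libraries. Immune markers summed to 6.30 to 6.67 CPM and 5.41 to 6.80 CPM, with 2 of 10 at 0 in every library, endothelial markers to 5.09 to 6.74 and 4.61 to 5.53 CPM, and fibroblast and muscle markers to 165 to 225 and 154 to 199 CPM, of which COL1A1 alone had a mean of 170 CPM. The libraries differed along the GC content of transcripts. Spearman's rho of GC content with a library's deviation from the 6-library mean, taken over genes (no substitute for replicates), was -0.62, 0.76 and -0.33 for the controls and 0.42, -0.67 and 0.11 for the HRAS guide. The tested members are therefore given as counted and after a correction for GC content and transcript length.

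None of the 8 tested members passed the threshold between the guides, an adjusted p of 0.05 over all genes in edgeR's quasi-likelihood test. Over all genes 2 of 19836 passed, which is 0.0101%. The members' log2 fold changes, HRAS guide minus control guide, ran from -0.14 to 0.02, with 6 below 0, 2 above 0 and a median of -0.09. The median over all genes tested was -0.0014. At an unadjusted p under 0.05, 663 genes (3.34%) were counted by edgeR over the whole table, and none of the members was among them. After the correction 2 of the 8 members, MMP1 and MMP10, were among 1133 such genes (5.81%). DESeq2 called 24 genes (0.121%) and limma-voom 1 (0.00504%), all lower and none a member. After the correction edgeR called 39 of 19489 genes (0.2%), 0.0103% higher and 0.19% lower, and with the sign of the GC trend as a covariate 81 (0.408%), 0.0555% higher and 0.353% lower. Again no member was called. In 3 members, PLAT, MMP1 and MMP10, the highest HRAS guide library was below the lowest control library, and no member showed the opposite. Over all genes tested, 4% had the groups apart in the lower direction and 4.81% in the higher direction. With corrected values the groups were apart in 2 members, PLAUR and MMP10, both lower, where 6.29% of genes were apart lower and 6.01% higher. Without control replicate 2 the same 3 members as counted were apart, beside 12.4% of all genes lower and 12.1% higher.

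**Figure D1:**
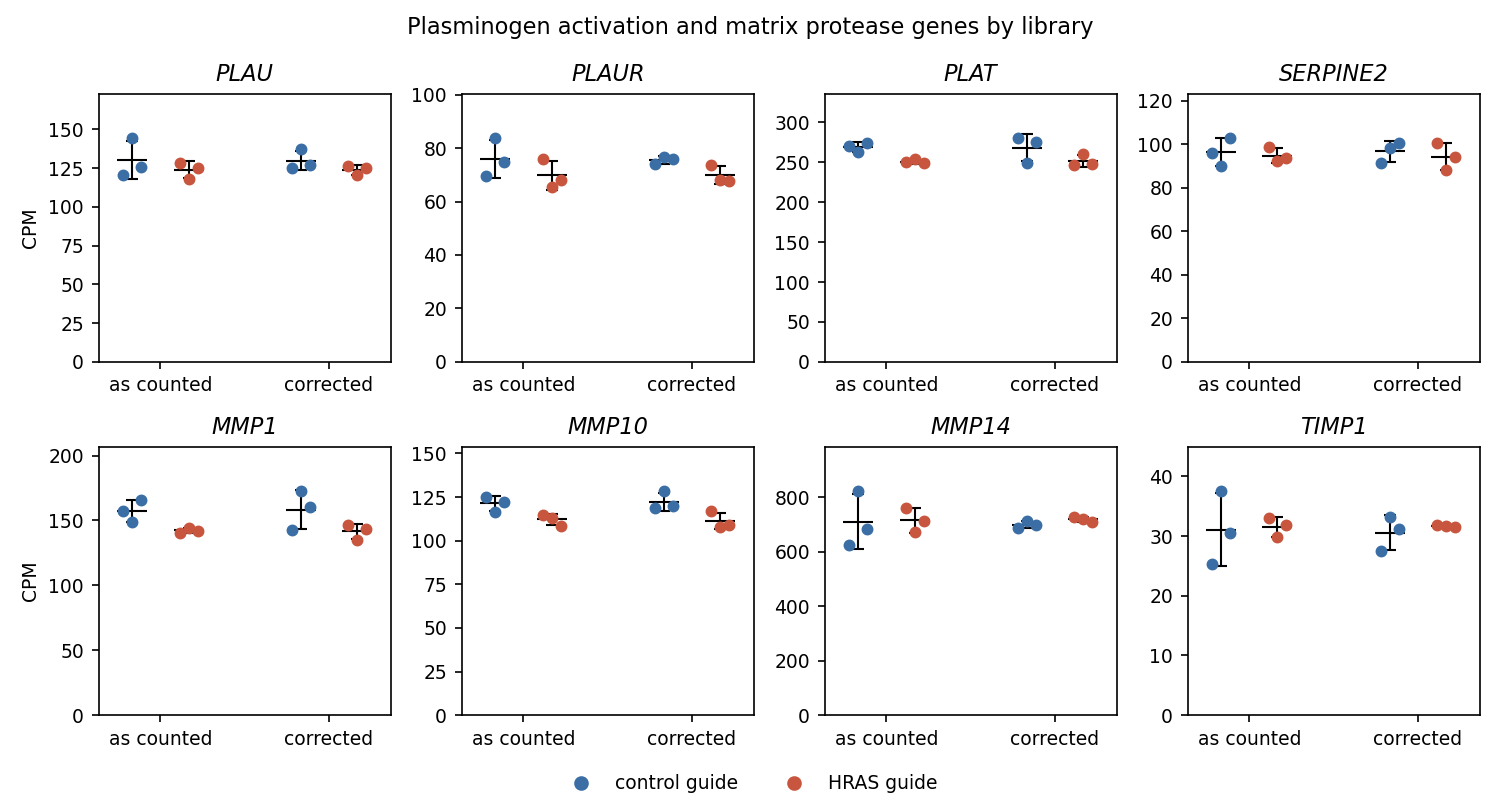
CPM (vertical axes, from 0) of the 8 tested members in each library, as counted and after the correction for GC content and length, with 3 control guide (blue) and 3 HRAS guide (red) libraries. Points are libraries and black bars the mean ± SD; as counted, the red points lie below all blue points for PLAT, MMP1 and MMP10, with gaps that are small beside the level.

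PLAU, the urokinase gene (ENSG00000122861, GRCh38 chromosome 10, 73909177 to 73917497, plus strand), gave 121, 144 and 126 CPM in the control libraries, against 129, 118 and 125 CPM under the HRAS guide. The highest library was control replicate 2, and the groups overlapped. Control cells averaged 130 ± 12.4 CPM and HRAS guide cells 124 ± 5.56 CPM (SD, n = 3 each). Its log2 fold change of -0.07 ± 0.09 had an edgeR adjusted p of 1.00. Its 95% interval ran from 0.824 to 1.10 times the control level. The corrected values were 125, 137 and 127 CPM for the control libraries, against 126, 120 and 125 CPM under the HRAS guide, and the groups still overlapped. At -0.07 ± 0.05 the corrected log2 fold change did not pass either (edgeR adjusted p = 0.953). Exons of PLAU overlap C10orf55 on the opposite strand, and without strand reads of the pair cannot be told apart. C10orf55 had 23 to 63 counts per library, where PLAU had 3195 to 4077.

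PLAUR, the urokinase receptor gene (ENSG00000011422, chromosome 19, 43646095 to 43670547, minus strand), gave 69.7, 83.7 and 74.8 CPM in the control libraries, against 75.8, 65.3 and 68.1 CPM under the HRAS guide. HRAS guide replicate 1 lay above 2 of the 3 control libraries. The log2 fold change was -0.13 ± 0.10 (edgeR adjusted p = 1.00), with an interval of 0.782 to 1.07 times the control level. The corrected values were 74.0, 76.8 and 75.8 CPM for the control libraries, against 73.8, 68.0 and 67.7 CPM under the HRAS guide. The corrected groups no longer overlapped, but were apart by the gap between 74.0 and 73.8 CPM only. The corrected log2 fold change of -0.11 ± 0.05 did not pass (edgeR adjusted p = 0.870).

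PLAT, the tissue-type activator gene (ENSG00000104368, chromosome 8, 42175233 to 42207724, minus strand), gave 270, 263 and 274 CPM in the control libraries, against 250, 253 and 248 CPM under the HRAS guide. Each HRAS guide library was below each control library as counted. Control cells averaged 269 ± 5.80 CPM and HRAS guide cells 251 ± 2.51 CPM (SD, n = 3 each). The log2 fold change of -0.10 ± 0.07 did not pass (edgeR adjusted p = 1.00), and the interval ran from 0.835 to 1.04 times the control level. After the correction the groups overlapped, since control replicate 2 then stood at 248 CPM and HRAS guide replicate 2 at 260 CPM.

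SERPINE2, the inhibitor of both activators (ENSG00000135919, chromosome 2, 223975112 to 224039319, minus strand), gave 96.1, 90.0 and 103 CPM in the control libraries, against 98.8, 92.1 and 93.5 CPM under the HRAS guide. Control libraries were both the lowest and the highest of the 6. For SERPINE2 the log2 fold change was -0.02 ± 0.09 (edgeR adjusted p = 1.00), with an interval of 0.860 to 1.13 times the control level. Its sign turned without control replicate 3, to 0.02. The corrected values were 91.4, 98.4 and 101 CPM for the control libraries, against 100.5, 88.2 and 93.9 CPM under the HRAS guide, at -0.04 ± 0.06 on the log2 scale (edgeR adjusted p = 0.988).

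MMP1, the collagenase gene (ENSG00000196611, chromosome 11, 102789920 to 102798160, minus strand), had the most negative log2 fold change of the tested members. It gave 157, 149 and 166 CPM in the control libraries, against 141, 144 and 142 CPM under the HRAS guide, with each HRAS guide library below each control library. Control cells averaged 157 ± 8.73 CPM and HRAS guide cells 142 ± 1.82 CPM (SD, n = 3 each). The log2 fold change of -0.14 ± 0.08 did not pass (edgeR adjusted p = 1.00), and its interval ran from 0.801 to 1.02 times the control level. After the correction the libraries spread to 142, 172 and 160 CPM with the control guide and 146, 135 and 143 CPM with the HRAS guide, and the groups overlapped. The corrected log2 fold change was -0.16 ± 0.07, with an interval of 0.805 to 0.992 times the control level, and did not pass over all genes (edgeR adjusted p = 0.797). Exons of MMP1 overlap the opposite-strand pseudogene WTAPP1, which had 1 to 9 counts per library.

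MMP10, the stromelysin gene next to MMP1 (ENSG00000166670, chromosome 11, 102770503 to 102780628, minus strand), gave 125, 116 and 122 CPM in the control libraries, against 115, 113 and 108 CPM under the HRAS guide. The groups did not overlap, by the gap between 116 and 115 CPM. The log2 fold change of -0.11 ± 0.08 did not pass (edgeR adjusted p = 1.00), and the interval ran from 0.817 to 1.05 times the control level. The corrected values were 119, 128 and 120 CPM for the control libraries, against 117, 108 and 109 CPM under the HRAS guide. MMP10 was the only tested member whose groups were apart both as counted and corrected. The corrected values come from the same counts, and the share of all genes apart in both was not counted. Its corrected log2 fold change was -0.14 ± 0.05, with an interval of 0.839 to 0.987 times the control level, and did not pass over all genes (edgeR adjusted p = 0.743).

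MMP14, the membrane-bound metalloproteinase gene (ENSG00000157227, chromosome 14, 22836557 to 22849027, plus strand), gave 626, 822 and 682 CPM in the control libraries, against 760, 671 and 714 CPM under the HRAS guide. The control libraries were both the lowest and the highest. Control cells averaged 710 ± 101 CPM and HRAS guide cells 715 ± 44.4 CPM (SD, n = 3 each), with a log2 fold change of 0.01 ± 0.10 (edgeR adjusted p = 1.00) and an interval of 0.860 to 1.18 times the control level. Corrected averages were 700 ± 12.9 and 719 ± 10.05 CPM (SD, n = 3 each), and the interval narrowed to 0.966 to 1.09 times the control level.

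MMP9, the gelatinase gene (ENSG00000100985, chromosome 20, 46008908 to 46016561, plus strand), was not detectable at this depth. It had 1 count in control replicate 1, 1 count in HRAS guide replicate 3 and 0 in the other 4 libraries. A count of 0 allows up to 3 counts, which is 0.0984 to 0.120 CPM in those 4 libraries. It was not tested and no fold is given.

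TIMP1, the metalloproteinase inhibitor gene (ENSG00000102265, chromosome X, 47582313 to 47586789, plus strand), gave 25.3, 37.5 and 30.5 CPM in the control libraries, against 33.1, 29.8 and 31.8 CPM under the HRAS guide. The control libraries enclosed the HRAS guide libraries. For TIMP1 the log2 fold change was 0.02 ± 0.14 (edgeR adjusted p = 1.00), with an interval of 0.819 to 1.26 times the control level, the widest among the 8. After the correction the HRAS guide libraries stood at 31.8, 31.7 and 31.6 CPM and the control libraries at 27.5, 33.1 and 31.1 CPM.

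**Figure D2:**
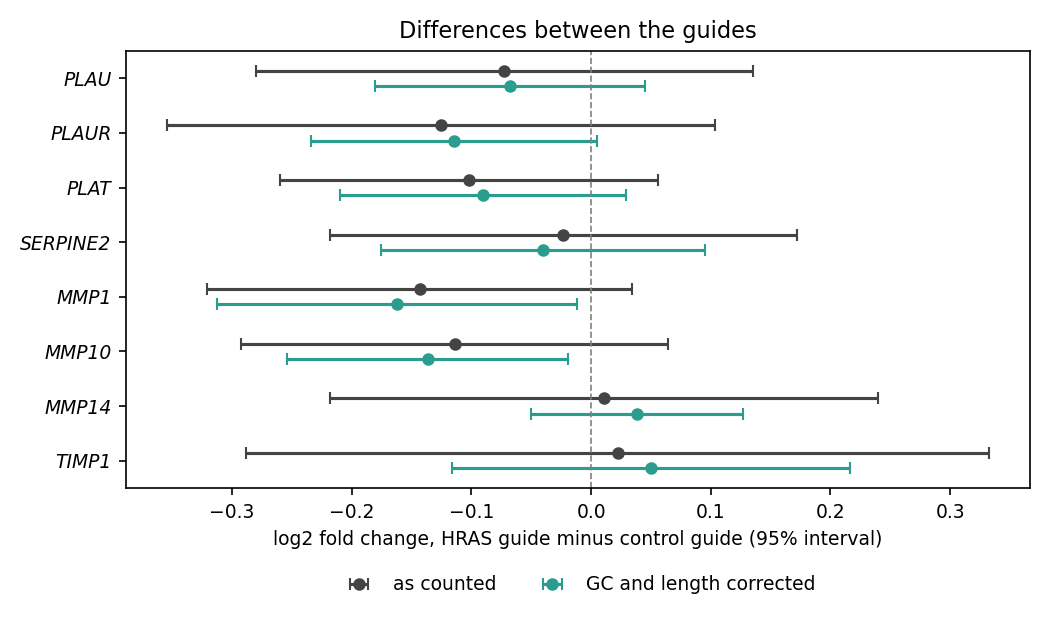
Log2 fold change of each tested member, HRAS guide minus control guide, with its 95% interval from edgeR, as counted (black) and after the correction for GC content and length (green). All 8 intervals as counted include 0, while those of MMP1 and MMP10 lie below 0 after the correction, with adjusted p of 0.797 and 0.743. The SD of both genes widened in both groups with the correction.

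The members differed in how far control replicate 2 stood from the other libraries. This library, with the most positive GC trend, was the highest of the 6 libraries for PLAU, PLAUR, MMP14 and TIMP1, whose GC content is 54.0% to 59.3%. It lay 0.22 to 0.32 (log2 CPM) above the mean of the other 5 libraries for these 4 genes. For MMP1, MMP10 and SERPINE2, with a GC content of 43.4% to 46.3%, it stood -0.01, -0.0024 and -0.10 from that mean, and for PLAT (54.8%) 0.02. The correction narrowed the SD in both groups for 4 members, PLAU, PLAUR, MMP14 and TIMP1. It widened it in both groups for 3, PLAT, MMP1 and MMP10, and narrowed it in 1 group only for SERPINE2. The SE of the log2 fold change fell all the same in PLAT (0.07 to 0.05), MMP1 (0.08 to 0.07) and MMP10 (0.08 to 0.05). After the correction control replicate 2 stood 0.25 above the other libraries for MMP1 and 0.16 above them for MMP10.

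Split by the sign of the GC trend, 1 set of libraries (negative) holds HRAS guide replicate 2 with controls 1 and 3, and the rest (positive) make up the other. As counted, PLAU, PLAUR, PLAT, MMP1 and MMP10 were below 0 in both sets. The log2 differences within the negative and the positive set were -0.16 and -0.07 for MMP1, -0.13 and -0.06 for MMP10, -0.10 and -0.08 for PLAT and -0.15 and -0.22 for PLAUR. They were -0.07 and -0.18 for PLAU. MMP14 (0.04 and -0.16), TIMP1 (0.10 and -0.21) and SERPINE2 (-0.11 and 0.09) had opposite signs in the sets as counted. After the correction MMP14 (0.06 and 0.008) and SERPINE2 (-0.12 and -0.02) had the same sign in both sets, and TIMP1 (0.12 and -0.06) did not. PLAU, PLAUR, PLAT, MMP1 and MMP10 stayed below 0 in both, with PLAT at -0.09 and -0.005. Each set has only 1 library of 1 of the guides, and the sets reuse the counts behind the differences over all libraries. The share of all genes below 0 in both sets was not counted. In the positive set the GC trend still differed, at 0.76 for the control against 0.42 and 0.11. The fit with the sign of the GC trend as a covariate tests the difference within these sets. In it the members' adjusted p ran from 0.388 (PLAUR, -0.18 ± 0.07) to 0.971 (SERPINE2) by edgeR, with MMP1 at -0.12 ± 0.06 (adjusted p = 0.475), so no member passed.

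MMP1 and MMP10 stand side by side in a cluster of 9 metalloproteinase genes on chromosome 11, whose genes were expressed unevenly. MMP1 and MMP10 are separated by 9291 bases and both lie on the minus strand. Their count ratio, MMP1 to MMP10, was 1.25, 1.28 and 1.36 in control replicates 1 to 3 and 1.22, 1.27 and 1.31 in HRAS guide replicates 1 to 3, a range from 1.22 to 1.36 in which the groups overlapped. MMP13, another collagenase, had a mean of 67.7 CPM and MMP7, also called matrilysin, 23.9 CPM. MMP12 was at 0.89 CPM, and MMP3, MMP8, MMP20 and MMP27 had 14, 3, 19 and 0 counts summed over the 6 libraries. MMP3, the stromelysin nearest to MMP10 in function, thus had 14 counts where MMP10 had 20237. In MMP7 the groups were apart in the direction opposite to MMP1 and MMP10. It gave 20.6, 22.4 and 21.6 CPM in the control libraries, against 26.7, 25.8 and 26.4 CPM under the HRAS guide. At 0.29 ± 0.09 on the log2 scale, MMP7 did not pass (edgeR adjusted p = 1.00, and 0.815 after the correction).

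Levels were compared between genes per kilobase of transcript, with the median length of a gene's transcripts that match a RefSeq mRNA. MMP14 was highest at 191 CPM per kilobase, followed by PLAT at 103, MMP1 at 76.0 and MMP10 at 66.4 CPM per kilobase. PLAUR (52.0), PLAU (51.0), SERPINE2 (44.2) and TIMP1 (35.1 CPM per kilobase) came next, and MMP9 last. PLAUR and PLAU overlapped over the libraries, as did each of them and SERPINE2, and SERPINE2 and TIMP1. The order depends on the length used: with all annotated exons of a gene merged, PLAT ranked below MMP1, MMP10 and PLAU, at 39.3 CPM per kilobase, and PLAUR stood at 16.4 CPM per kilobase.

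Ratios of protease to inhibitor or receptor were taken within each library. MMP14 had 24.7, 21.9 and 22.4 times the counts of TIMP1 in control replicates 1 to 3 and 23.0, 22.5 and 22.5 times in HRAS guide replicates 1 to 3. PLAU had 1.73, 1.72 and 1.68 times the counts of PLAUR with the control guide and 1.69, 1.80 and 1.84 times with the HRAS guide. MMP1 to TIMP1 was more variable, at 6.20, 3.97 and 5.45 against 4.25, 4.84 and 4.47, and MMP10 to TIMP1 stood at 4.95, 3.11 and 4.01 against 3.47, 3.80 and 3.41. The groups overlapped in each of these ratios. TIMP1 was not the only inhibitor of its family present. TIMP2 and TIMP3 averaged 252 and 249 CPM over all libraries, against 31.3 CPM for TIMP1, and enter none of these ratios. The ratios therefore do not give the balance of a protease with its inhibitors as a whole.

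Other genes of the plasminogen system also gave no call. Of 20 listed, 14 were tested, with 0 called in either direction, 4 positive and 10 negative, and a median log2 fold change of -0.04. Plasminogen itself (PLG) was among the 6 that were too low to be tested. SERPINB2, a serpin that inhibits urokinase and had the smallest p of the list, averaged 45.2 ± 7.19 CPM in control cells and 36.8 ± 2.20 CPM under the HRAS guide (SD, n = 3 each), a log2 fold change of -0.30 ± 0.13 (edgeR adjusted p = 1.00). The plasminogen-binding surface proteins ANXA2 and ENO1 were abundant, at means of 1733 and 1909 CPM, with log2 fold changes of -0.03 each.

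Of 19 other metalloproteinases 12 were tested, with 0 called, 5 positive and 7 negative, and a median of -0.03. Besides MMP7, MMP16 had the smallest p, at -0.30 ± 0.15. Among 7 metalloproteinase inhibitors and regulators 6 were tested and 0 called, with 3 positive and 3 negative. TIMP4 (-0.32 ± 0.32), below 1 CPM, and RECK (0.11 ± 0.13) had the smallest p there, and BSG, an inducer of metalloproteinases, had a mean of 979 CPM. Matrix proteins on which these enzymes act were tested in 17 of 19 cases. As counted 0 were called, with 1 positive, 16 negative and a median of -0.05. LAMB3, a subunit of laminin-332, had the smallest p, at -0.32 ± 0.09 (edgeR adjusted p = 1.00), followed by SDC4 (-0.14 ± 0.09). After the correction LAMB3 was called lower (-0.28 ± 0.04, edgeR adjusted p = 0.0276), where 0.2% of all genes were called.

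Genes of AP-1 and ETS factors, the proteins that bind such letters, were mostly below 0. As counted 0 of 15 were called by edgeR, with 14 negative and a median of -0.15, and in 6 of the 15 the groups were apart in the lower direction, beside 4% of all genes. DESeq2 called 3, FOSL1, JUN and ATF3, all lower, where it called 0.121% of all genes. After the correction, where 0.19% of all genes were called lower, edgeR called 4 lower: ATF3 (-0.67 ± 0.06), FOSL1 (-0.61 ± 0.05), JUN (-0.41 ± 0.04) and FOSB (-0.40 ± 0.05). FOSL1 gave 148, 174 and 155 CPM in the control libraries, against 112, 91.8 and 104 CPM under the HRAS guide. The 2 members with a TGANTCA match in the windows printed above, MMP10 and PLAUR, had corrected log2 fold changes of -0.14 and -0.11. The 4 members with windows but no such match had -0.07 (PLAU), -0.04 (SERPINE2), 0.04 (MMP14) and 0.05 (TIMP1). Windows of SERPINE2, MMP14 and TIMP1 hold near matches, which were not searched for as such. MMP1 and PLAT, with no window searched, had -0.16 and -0.09. Whether their promoters hold such a match was not looked at, so they count neither as members with a match nor as members without. No difference between these members, or between members and factors, was tested. These factor genes were already known to differ in these data when the list was made.

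**Figure D3:**
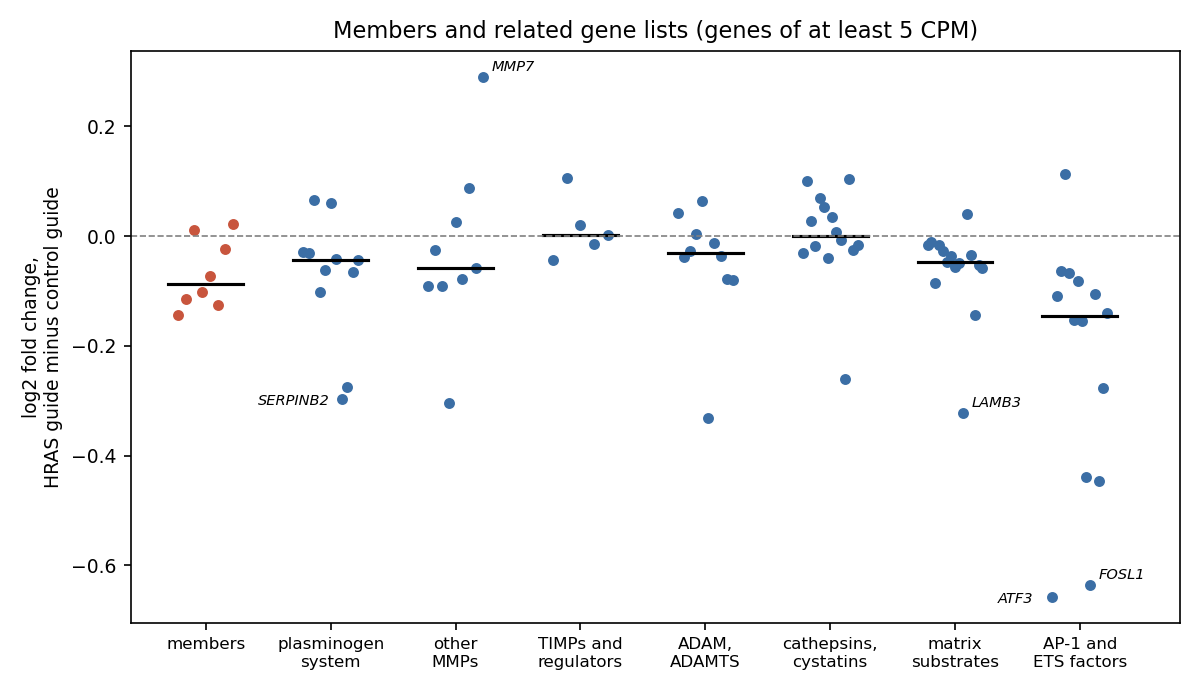
Log2 fold change as counted (vertical axis, HRAS guide minus control guide) of the tested members (red) and of the genes of 7 related lists (blue), for genes with a mean of at least 5 CPM, with 1 point a gene and a black line at the median of the points shown. The members lie between -0.14 and 0.02, and the AP-1 and ETS factors reach -0.66.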

How the data were processed

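Per the file header and its values, the authors deposited raw, whole-number counts per gene in 1 table, of which 1 row without values was left out. Columns were matched to the sample titles by guide and replicate number. HISAT2, StringTie, DESeq2 and the hg38 build appear in the submitters' processing notes, with no version or role. Which tool counted, with what annotation and strand setting, is not given in the sources used here. A gene name table gave the symbols, and coordinates, GC content and lengths from GENCODE release 29 on GRCh38.

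Genes were filtered with filterByExpr, scaled by TMM and compared on group alone by edgeR 4.0.16 (quasi-likelihood, two-sided, under R 4.3.3, with Benjamini-Hochberg over all 19836 genes, threshold 0.05). SE and 95% intervals come from the F statistic. Alternatives used DESeq2 1.42.0, limma-voom (limma 3.58.1), other scalings and filters, the replicate number as a block, the sign of the GC trend as a covariate, and each library left out. For the GC and length correction, log2 CPM with a prior count of 2 was regressed per library, robustly, on splines (5 and 4 degrees of freedom, genes with a mean log2 CPM above 1) and the fit entered edgeR as offsets, for 19489 genes. Length and GC content in this correction were medians over all annotated transcripts of a gene. That length was 578.5 bases for MMP14, where levels per kilobase used 3732, and 1970 for MMP1 in both. Scripts were tested on simulated data. MMP9 has no ratio or fold.

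The members and lists were chosen with earlier results of these data known. All members and HRAS are named. Each list is represented by its called genes or, failing any, by the 2 genes with the lowest p, and genes above 500 CPM may be added. For each member above 5 CPM the 3 genes of highest Pearson r are named. MMP7 and LAMB3 fall under this rule, and the other genes of the chromosome 11 cluster were added for their position. TIMP2 and TIMP3 were added beside the ratios to TIMP1. Counting error alone limits the value given for a count of 0. A gene of the plasminogen list that the rule would name, with a planned ratio to it, is not reported here.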

Additional observations from a re-analysis of the deposited data

How the results depend on the processing

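Under 16 alternatives the 8 tested members gave 128 values of the log2 fold change, of which 0 passed the threshold and 118 kept their sign. The smallest adjusted p was 0.388, for PLAUR with the sign of the GC trend as a covariate. PLAUR, PLAT, MMP1 and MMP10 kept their sign in all 16. With each library left out, the log2 fold change ran from -0.13 to 0.0074 for PLAU, from -0.069 to 0.0182 for SERPINE2, from -0.0764 to 0.13 for MMP14, from -0.11 to 0.18 for TIMP1 and from -0.13 to 0.22 for HRAS. PLAU was above 0 only without control replicate 2, SERPINE2 only without control replicate 3. MMP14, TIMP1 and HRAS turned negative without control replicate 1, control replicate 3 or HRAS guide replicate 1, and with the sign of the GC trend as a covariate (-0.0595, -0.0589 and -0.0914). Leaving out a library ran from -0.19 to -0.05 for PLAUR, from -0.12 to -0.09 for PLAT, from -0.18 to -0.11 for MMP1 and from -0.14 to -0.09 for MMP10. The cause of these changes was not tested.

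The count of genes called, 2, moved to 24 with DESeq2, to 1 with limma-voom, to 1 with DESeq2 size factors in edgeR, to 57 with no filter and to 1 with at least 1 CPM in 3 libraries. It was 39 after the GC and length correction and 81 with the sign of the GC trend as a covariate. It ran from 1 to 24 with a library left out, at 24 without control replicate 2 and 4 without control replicate 1. The cause was not tested. With the replicate number as a block 1 gene was called, and 5 with the block and the correction together. Libraries of the same number did not deviate together (r across genes of -0.19, -0.29 and -0.06 for numbers 1 to 3), so the numbers were not treated as pairs.

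The 3 members with groups apart became 2 with the corrected values and stayed 3 without control replicate 2, both chosen after seeing the data. Per kilobase, the mean ratio over 6 libraries was 0.982 in place of 1.75 for PLAU to PLAUR, 2.20 in place of 4.86 for MMP1 to TIMP1, 1.92 in place of 3.79 for MMP10 to TIMP1 and 5.46 in place of 22.8 for MMP14 to TIMP1, since each gene's length enters as a constant.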

Other observations

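Proteases outside the plasminogen and metalloproteinase families gave 0 calls by edgeR, as counted and after the correction. Of 16 ADAM and ADAMTS genes 15 were tested, 5 positive and 10 negative, with a median log2 fold change of -0.04. ADAM8, a leukocyte-type sheddase that tumours can express, averaged 33 ± 7.16 CPM in control cells, against 26.2 ± 1.86 CPM under the HRAS guide (SD, n = 3 each), at -0.33 ± 0.15, and ADAMTS5, an aggrecanase gene, at -0.47 ± 0.21. All 15 cathepsins and cystatins were tested, 8 positive and 7 negative, with a median of 0.0082. CST6 (0.61 ± 0.48), below 1 CPM, and CTSO (-0.26 ± 0.21) had the smallest p. Of 11 other serine proteases, convertases and Kunitz inhibitors 11 were tested, 4 positive and 7 negative, with a median of -0.02. PCSK5 (0.25 ± 0.18) and FURIN (-0.07 ± 0.09), convertases that cut protein precursors, had the smallest p.

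Marker lists gave 0 calls. The smallest p were those of GATA3 (-0.13 ± 0.10) and KRT14 (0.11 ± 0.13) among epithelial markers, PDGFRB (0.53 ± 0.24) and LUM (0.24 ± 0.25) among fibroblast and muscle markers, CSF1R (-0.49 ± 0.20) and CD14 (0.34 ± 0.20) among immune markers, and CLDN5 (-0.51 ± 0.26) and VWF (-0.19 ± 0.18) among endothelial markers.

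The genes most like each member were sought among 11933 genes of at least 5 CPM by Pearson's r of log2 CPM over the 6 libraries, which differ along the GC content of transcripts. They were MLLT1, SEPTIN9 and CRAT for PLAU, SPINDOC, AATF and FERMT3 for PLAUR, ELMO2, MT-RNR2 and HSPA5 for PLAT, and KCTD18, BDNF and SF3A3 for SERPINE2. For MMP1 they were CNNM4, ISG20L2 and SPRY4, for MMP10 CHST11, SLC37A1 and TCF7L2, for MMP14 RPL23A, EIF3I and PDAP1, and for TIMP1 LTBR, RBX1 and S100A2. The highest r was 0.987 for MMP1, 0.986 for MMP10 and 0.999 for MMP14. With 6 libraries and this many genes compared, such values are a description only.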
